A study of Mus musculus with 18 samples.

Results

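The genes described here are 45 genes of the cell division cycle, 22 that act in S phase and 23 that act in mitosis, followed in the testis of hypogonadal mice during treatment with follicle-stimulating hormone (FSH). They were chosen by name and looked up by gene symbol on an Affymetrix MOE430A microarray. These genes and the gene lists below were chosen with earlier results of these data known. Of the 45, 44 had a probe set that carries their symbol alone (22 S phase and 22 mitosis genes), among 12393 genes with such a probe set and 22626 probe sets tested. Ccnb1 was not analysed here. Where a gene had several probe sets, the brightest over all arrays was used. No gene was removed for a low value.

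All animals were adult hpg males aged 10 weeks, so the FSH-treated mice and the controls carried the same mutation. FSH-treated mice received recombinant human FSH (Gonal F), 8 IU in 0.2 ml of PBS under the skin every 12 h, and were killed 1 h after the last injection. Treatment lasted 12 h (4 mice), 24 h (3 mice) or 72 h (4 mice), and 7 untreated hpg males were the controls. Each of the 18 arrays held RNA from the testis of 1 mouse, and the deposited values are normalized levels on a log2 scale. In hpg mice the gene for gonadotrophin-releasing hormone is defective, so the pituitary secretes very little FSH and luteinizing hormone, the testis stays small, and germ cells do not pass through meiosis. The tissue is a mixture of Sertoli, Leydig, peritubular and other somatic cells with spermatogonia and spermatocytes, and in such bulk RNA fewer cells of a dividing type and less RNA per cell cannot be told apart.

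A cell that divides first licenses its replication origins: the origin recognition complex with Cdc6 and Cdt1 loads the MCM helicase, a ring of 6 subunits, and in S phase Cdc45 joins the helicase while polymerases copy the DNA. In mitosis cyclin-dependent kinase 1 with its cyclins, the Aurora kinases and polo kinase build the spindle, the spindle checkpoint holds anaphase back until every kinetochore is attached, and the anaphase-promoting complex with Cdc20 then ends mitosis. Many S phase genes are transcribed under E2F factors, and many mitosis genes through a cell cycle homology region near the start site together with CCAAT boxes bound by NF-Y. FSH acts on Sertoli cells, the somatic cells that nurse the germ cells, and is known to stimulate their division in the immature testis. In the testis the same genes also serve the mitotic divisions of spermatogonia and the meiotic cycle of spermatocytes.

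The arrays fell into 2 technical sets, told apart by Dap, a bacterial poly-A RNA spiked into samples before labelling, whose level was 8.05 to 8.86 on 12 arrays (12 h, 72 h and controls 4 to 7) and 2.70 to 3.41 on the other 6 (24 h and controls 1 to 3). Each FSH group was therefore set against the controls of its own array set, and a called difference had an adjusted p below 0.05 in limma over all probe sets. Between controls 1 to 3 and controls 4 to 7, 2107 of all probe sets (9.31%) differed by that rule, among them 3 members (Plk1, Kif11 and Pcna). Control 6 stood apart from every other array: its spermatid markers averaged 9.99, against 3.02 to 3.18 in controls 4, 5 and 7, and protamine 1 was at 12.0. Values that rest on control 6 are given below with and without it.

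The S phase and mitosis genes carried different words in their promoters. Promoters of 300 bases, 250 before and 50 after the start site, were available from RefSeq (build GRCm38.p6) for 20 S phase and 18 mitosis genes. On either strand, an E2F word (TTTGGCGC, TTTCCCGC or GGCGGGAA, of which the last 2 can overlap on opposite strands) stood in 12 of the 20 S phase promoters (60.0%) and in 0 of the 18 mitosis promoters, against 3.31% of 27025 promoters of all genes. The cell cycle homology word TTTGAA stood in 13 mitosis promoters (72.2%) and in 2 S phase promoters (10.0%), against 18.1% of all. CCAAT, the core of the NF-Y box, stood in 15 mitosis promoters (83.3%), in 14 S phase promoters (70.0%) and in 37.9% of all. Such matches describe the letters in these windows and not occupied sites.

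**Figure D1:**
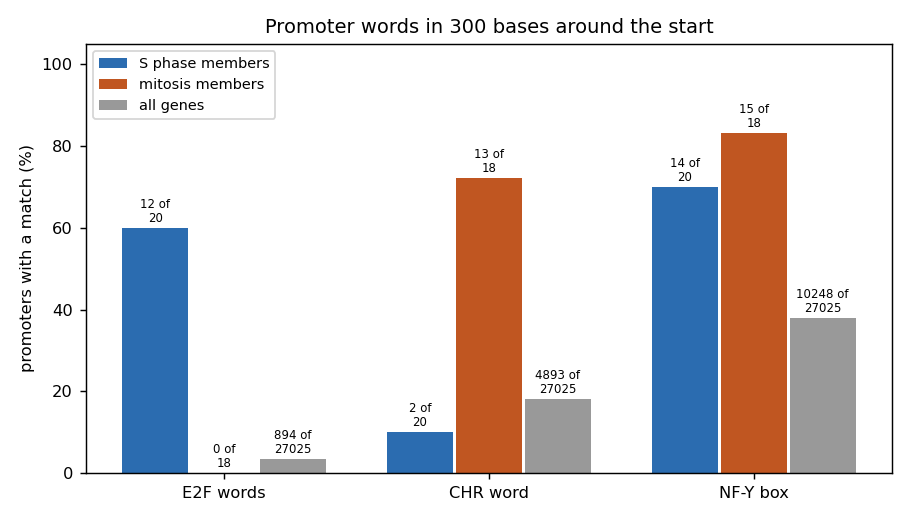
Share of promoters, in percent, that hold an E2F word, the cell cycle homology word TTTGAA or CCAAT on either strand, for 20 S phase genes, 18 mitosis genes and 27025 promoters of all genes. E2F words were found in 60.0% of the S phase and none of the mitosis promoters, TTTGAA in 72.2% of the mitosis promoters.

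The stretch from base -180 to base 20, counted from the start site, is shown for 6 genes, since it lets the words of each group be read in place. The first 4 are mitosis genes whose values are described below, and the last 2 are S phase genes. Sequences run 5′ to 3′ along the gene, and capitals mark the words, with CCAAT on the other strand read as ATTGG and GGCGGGAA as TTCCCGCC.
Cdk1 (chr10:69352893-69353092, minus strand): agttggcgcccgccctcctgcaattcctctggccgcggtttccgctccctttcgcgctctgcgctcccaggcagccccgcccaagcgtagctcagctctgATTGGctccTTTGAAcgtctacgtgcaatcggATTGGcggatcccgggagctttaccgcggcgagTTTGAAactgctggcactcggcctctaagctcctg
Mki67 (chr7:135716360-135716559, minus strand): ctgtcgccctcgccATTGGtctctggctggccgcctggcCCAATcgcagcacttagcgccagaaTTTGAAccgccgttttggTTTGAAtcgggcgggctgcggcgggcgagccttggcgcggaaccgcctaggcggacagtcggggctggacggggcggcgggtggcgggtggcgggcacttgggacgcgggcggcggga
Ccnb2 (chr9:70421535-70421734, minus strand): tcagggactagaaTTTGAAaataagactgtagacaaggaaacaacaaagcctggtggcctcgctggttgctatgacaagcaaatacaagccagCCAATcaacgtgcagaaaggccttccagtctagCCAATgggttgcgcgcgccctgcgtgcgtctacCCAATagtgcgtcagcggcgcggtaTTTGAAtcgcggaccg
Cdc20 (chr4:118437324-118437523, minus strand): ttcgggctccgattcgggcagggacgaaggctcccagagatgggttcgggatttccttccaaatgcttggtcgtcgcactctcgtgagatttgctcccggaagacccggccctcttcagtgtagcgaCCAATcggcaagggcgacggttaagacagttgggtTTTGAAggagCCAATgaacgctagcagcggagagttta
Mcm6 (chr1:128359686-128359885, minus strand): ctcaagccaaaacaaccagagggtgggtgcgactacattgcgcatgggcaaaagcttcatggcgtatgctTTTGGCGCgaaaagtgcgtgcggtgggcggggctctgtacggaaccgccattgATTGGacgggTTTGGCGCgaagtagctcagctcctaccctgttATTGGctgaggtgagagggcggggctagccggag
Rrm1 (chr7:102441515-102441714, plus strand): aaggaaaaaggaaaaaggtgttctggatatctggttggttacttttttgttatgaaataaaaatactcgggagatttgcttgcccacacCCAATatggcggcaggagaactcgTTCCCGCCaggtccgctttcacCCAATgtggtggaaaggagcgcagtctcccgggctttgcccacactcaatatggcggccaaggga

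Cdk1, the kinase that drives entry into mitosis, had 2 TTTGAA and 2 ATTGG words in this window, and Mki67, the proliferation antigen Ki-67, had 2 TTTGAA words. Ccnb2, cyclin B2, had 2 TTTGAA and 3 CCAAT words. Cdc20, the activator of the anaphase-promoting complex, had 1 TTTGAA and 2 CCAAT words. Mcm6, a subunit of the MCM helicase, had TTTGGCGC at 2 places, and Rrm1, the large subunit of ribonucleotide reductase, had 1 E2F word. Of all promoters 7.12% held both TTTGAA and CCAAT, a combination found in 13 mitosis and 2 S phase promoters.

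Few cell cycle genes passed the test at any time, and every S phase gene that did so fell. After 12 h of FSH no S phase and no mitosis gene was called by limma, where 5.35% of all probe sets were, and 9 S phase and 7 mitosis genes had an unadjusted p below 0.05, all lower. After 24 h the S phase genes Mcm4, Chek1 and Brca1 and the mitosis genes Cenpa and Mki67 fell, 3 of 22 and 2 of 22, where 13.4% of all probe sets were called and 7.26% were called lower. After 72 h Mcm4 and Mcm6 fell, 2 of 22 S phase genes, and no mitosis gene was called (6 had an unadjusted p below 0.05, 4 lower and 2 higher), where 6.13% of all probe sets were called and 2.50% called lower. Of 42 other, dimmer probe sets of 24 members, 1, 5 and 1 were called lower at 12 h, 24 h and 72 h, and none higher. With the replicate number as a block for the 24 h mice and controls 1 to 3, whose same-numbered arrays deviated together, Mcm2 (-0.48, adjusted p = 0.0288), Orc1 (-1.09, adjusted p = 0.0367) and Rfc4 (-0.50, adjusted p = 0.0155) were called as well. That made 6 of 22 S phase genes and still 2 of 22 mitosis genes, all lower, where 21.3% of all probe sets were called and 9.46% called lower. This block was chosen after seeing the data, and the labels do not state that same-numbered mice are pairs. Most members are brighter than the typical probe set. Of the 10548 probe sets with a mean of at least 5, 3.70%, 13.9% and 4.17% were called lower at 12 h, 24 h and 72 h without the block. Their share with the block is not given here.

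The sign of the differences was less even than the calls. At 12 h 18 of 22 S phase and 21 of 22 mitosis genes had a log2 difference below 0, against 56.1% of all probe sets, with medians of -0.17 and -0.27 against 0.00 over all probe sets. At 24 h 16 S phase and 12 mitosis genes were below 0, against 38.2% of all probe sets, with medians of -0.21 and -0.13 against 0.04. The 24 h medians rested on single arrays: the mitosis median was 0.014 without control 3, and the S phase median was -0.12 without 24 h replicate 3 and -0.11 after quantile normalization. At 72 h 18 S phase and 15 mitosis genes were below 0, against 38.7% of all, with medians of -0.31 and -0.08 against 0.01. Among the probe sets with a mean of at least 5, 53.0%, 58.0% and 51.9% were below 0 at 12 h, 24 h and 72 h. The medians of these brighter probe sets were -0.02, -0.08 and -0.01, so at 24 h the mitosis genes lay near them. The 12 h and 72 h values share controls 4 to 7, so they are given side by side only.

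**Figure D2:**
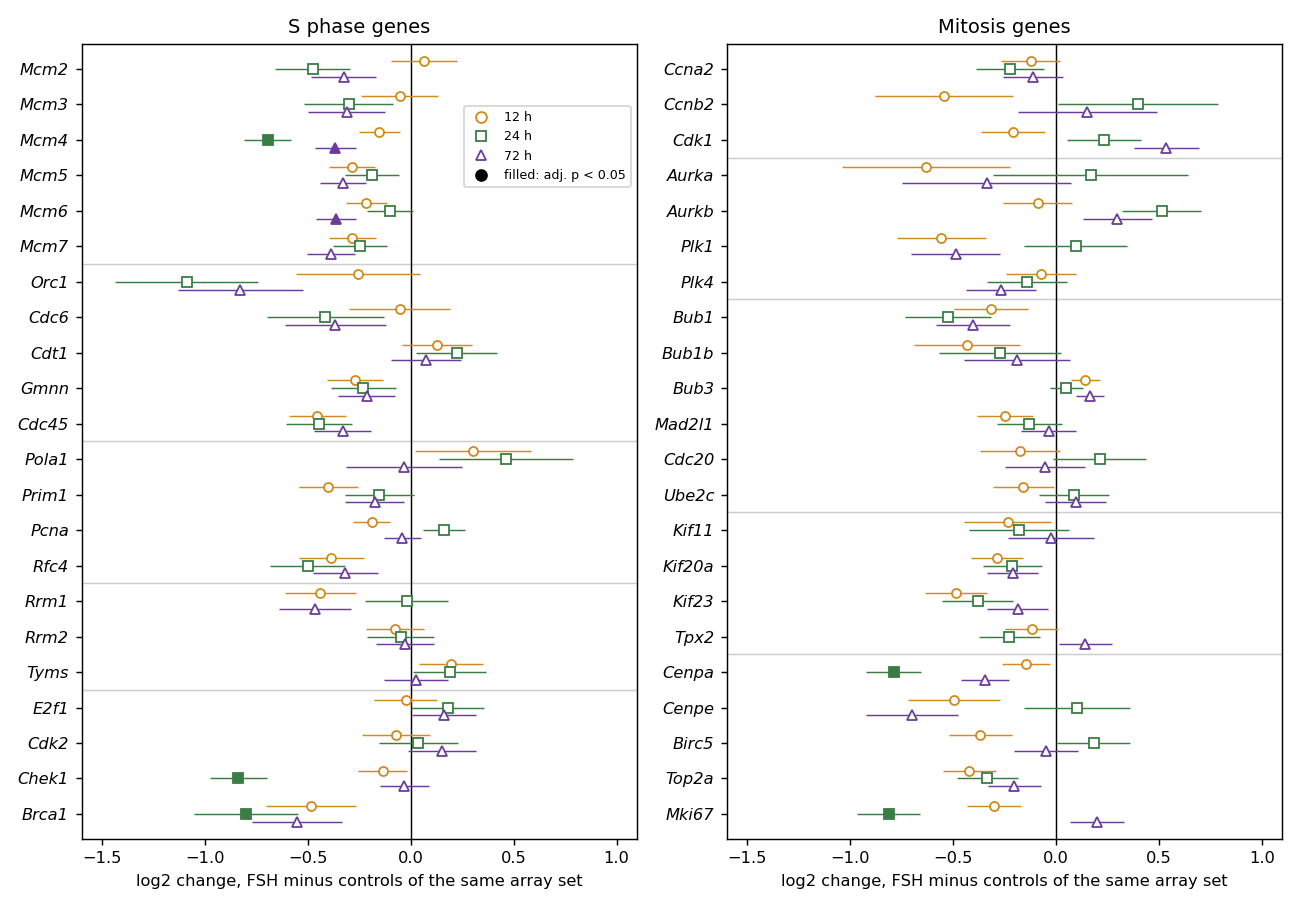
Log2 change (FSH minus controls of the same array set, point and standard error from limma) of 22 S phase genes and 22 mitosis genes after 12 h (circles, 4 mice), 24 h (squares, 3 mice) and 72 h (triangles, 4 mice), ordered by role, with grey lines between roles. Filled symbols passed the test over all probe sets: Mcm4, Chek1, Brca1, Cenpa and Mki67 at 24 h, and Mcm4 and Mcm6 at 72 h, all lower.

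The 6 subunits of the MCM helicase, Mcm2 to Mcm7, had median log2 differences of -0.19 at 12 h, -0.27 at 24 h and -0.35 at 72 h. All 6 were below 0 at 24 h and at 72 h, where they lay close together, between -0.39 and -0.31. Mcm4 had the smallest adjusted p of the subunits at 24 h. Its level was 7.09, 6.98 and 6.87 in the 24 h mice, against 7.76, 7.67 and 7.61 in controls 1 to 3. All 3 treated mice were below all 3 controls, and Mcm4 fell by 0.70 on the log2 scale (SE 0.11, limma adjusted p = 0.00136), or 1.62-fold lower. At 72 h Mcm4 read 7.03, 7.24, 7.29 and 7.27, against 7.76, 7.67, 7.47 and 7.40 in controls 4 to 7. The groups again did not overlap, and Mcm4 fell by 0.37 (SE 0.10, adjusted p = 0.0423), or 1.29-fold lower. At 12 h it averaged 7.42 ± 0.19 in FSH-treated mice and 7.58 ± 0.17 in controls 4 to 7 (SD, n = 4 each), a difference of -0.15 (SE 0.10, limma adjusted p = 0.572). Its second probe set gave -0.30 at 24 h and -0.11 at 72 h, neither called, and the mean of both gave -0.50 at 24 h (adjusted p = 0.132) and -0.24 at 72 h (adjusted p = 0.67).

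Mcm6 read 8.38, 8.63, 8.53 and 8.79 in the 72 h mice, against 8.92, 9.06, 8.81 and 9.0 in controls 4 to 7. The highest treated mouse lay just below the lowest control, and Mcm6 fell by 0.36 (SE 0.10, limma adjusted p = 0.0413), or 1.29-fold lower, with a 95% interval from -0.57 to -0.15. At 24 h it averaged 8.81 ± 0.16 in FSH-treated mice and 8.91 ± 0.09 in controls 1 to 3 (SD, n = 3 each), a difference of -0.10 that was within the spread. Its second probe set gave -0.04 at 72 h, and the mean of both gave -0.20 (adjusted p = 0.583). The 72 h calls of both helicase subunits rested on single arrays: Mcm4 lost its call in 9 of the 18 fits that left out 1 array (12 h replicate 3, 24 h replicate 2, each 72 h mouse, and controls 2, 4 and 5), with differences of -0.42 to -0.30 and adjusted p up to 0.131. Mcm6 lost it in 9 (12 h replicates 2 and 4, 72 h replicates 1, 2 and 3, and controls 2, 4, 5 and 7), with -0.43 to -0.30 and adjusted p up to 0.121. Without control 6 they were -0.40 (adjusted p = 0.0454) and -0.41 (adjusted p = 0.0352). In a fit of the 12 arrays of that set alone limma gave adjusted p values of 0.0778 for Mcm4 and 0.0572 for Mcm6.

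The other subunits stayed short of the threshold. Mcm7 differed by -0.39 at 72 h (SE 0.11, limma adjusted p = 0.0642), with the treated mice all below the controls, and Mcm5 by -0.33 (adjusted p = 0.112). Mcm2 differed by 0.06 at 12 h, -0.48 at 24 h (adjusted p = 0.0972, with the block 0.0288) and -0.33 at 72 h. Mcm3 differed by -0.05, -0.30 and -0.31 at the 3 times.

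The genes that license and fire origins, Orc1, Cdc6, Cdt1, Gmnn and Cdc45, had medians of -0.26, -0.42 and -0.33 at 12 h, 24 h and 72 h, and none was called without the block. Orc1, the large subunit of the origin recognition complex, read 5.10, 4.82 and 3.98 in the 24 h mice, against 6.02, 5.52 and 5.64 in controls 1 to 3. The groups did not overlap, but the treated mice were spread widely, and the difference of -1.09 (SE 0.35) had a limma adjusted p of 0.0532. It passed with the block (adjusted p = 0.0367), with probe sets of a mean of at least 4 (0.0293), with the other eBayes setting (0.0423) and against all 7 controls (0.0159). Leaving out the first 24 h mouse or the first 72 h mouse brought it under the threshold, with adjusted p of 0.03 and 0.0309. Without 24 h replicate 3 the difference shrank to -0.76, and over the 18 fits that left out 1 array the adjusted p reached 0.179. In a fit of the 24 h mice and controls 1 to 3 alone the limma adjusted p was 0.195. At 72 h Orc1 read 3.96, 4.68, 5.12 and 5.27, against 5.92, 5.87, 5.29 and 5.26 in controls 4 to 7, a difference of -0.83 (SE 0.30, adjusted p = 0.144) with groups that overlapped narrowly.

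Cdc45, the helicase partner that is loaded as an origin fires, had the smallest adjusted p of the S phase genes at 12 h. It read 6.97, 7.40, 6.85 and 7.11 in the 12 h mice, against 7.46, 7.58, 7.29 and 7.84 in controls 4 to 7. The highest treated mouse lay among the controls, and the difference was -0.46 (SE 0.14, limma adjusted p = 0.0764). It passed without control 6 (-0.54, adjusted p = 0.047) and when 12 h replicate 2 was left out (adjusted p = 0.0284). At 24 h and 72 h the differences were -0.45 (adjusted p = 0.077) and -0.33 (adjusted p = 0.22). Cdt1, the loader of the helicase, differed by 0.13, 0.22 and 0.07 at the 3 times, and geminin (Gmnn), its inhibitor, by -0.27, -0.23 and -0.22, with groups that did not overlap at 24 h and 72 h. Cdc6 differed by -0.05, -0.42 and -0.37.

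Of the genes that copy DNA, Rfc4, a subunit of the loader of the sliding clamp, differed by -0.39 at 12 h, -0.50 at 24 h (limma adjusted p = 0.0838, with the block 0.0155) and -0.32 at 72 h. A second Rfc4 probe set was called at 24 h (-0.67, adjusted p = 0.0204). Prim1, the small subunit of primase, differed by -0.40 at 12 h (adjusted p = 0.152), and Pola1, the catalytic subunit of polymerase alpha, by 0.30, 0.46 and -0.03 at the 3 times. The sliding clamp Pcna differed by -0.19, 0.16 and -0.04, and its controls themselves differed between the array sets by -0.37 (controls 1 to 3 minus controls 4 to 7, adjusted p = 0.0279).

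Among the genes that supply nucleotides, Rrm1 read 8.23, 8.18, 8.28 and 8.49 in the 72 h mice, against 8.63, 8.68, 8.91 and 8.83 in controls 4 to 7. The treated mice were all below the controls, with a difference of -0.46 (SE 0.17, limma adjusted p = 0.159), and a second Rrm1 probe set was called at 72 h (-0.37, adjusted p = 0.0142) and at 24 h (-0.42, adjusted p = 0.00962). The brightest set itself differed by -0.02 at 24 h (adjusted p = 0.956), so the 2 sets disagreed at that time. At 12 h it read 7.72, 8.67, 8.45 and 8.45, where replicate 1 was far below the others, and without that array its 72 h difference was called (adjusted p = 0.0345). Rrm2, the small subunit of the same enzyme, differed by -0.08, -0.05 and -0.03. Tyms, thymidylate synthase, was dim, with a mean of 3.80, and differed by 0.20, 0.19 and 0.02.

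Of the regulators of S phase, Chek1 and Brca1 fell at 24 h. Chek1, the kinase that halts the cycle when replication stalls, read 4.54, 4.57 and 4.73 in the 24 h mice, against 5.43, 5.63 and 5.30 in controls 1 to 3. All treated mice were well below all controls, and Chek1 fell by 0.84 (SE 0.14, limma adjusted p = 0.00139), or 1.79-fold lower. At 12 h and 72 h it averaged 5.48 ± 0.17 and 5.58 ± 0.20, against 5.61 ± 0.20 in controls 4 to 7 (SD, n = 4 each), differences of -0.14 and -0.03 that were within the spread. Chek1 had 3 other, dimmer probe sets, which gave 0.27, 0.10 and -0.46 at 24 h and were not called, and the mean of its probe sets gave -0.23 (adjusted p = 0.179). E2f1 and Cdk2, the factor and the kinase that promote entry into S phase, differed by between -0.07 and 0.18 at all times.

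Brca1, which acts in the repair of broken and stalled replication forks and in meiotic chromosomes, read 6.07, 6.07 and 5.24 in the 24 h mice, against 7.04, 6.62 and 6.13 in controls 1 to 3. The highest treated mouse lay just below the lowest control. Brca1 fell by 0.80 (SE 0.25, limma adjusted p = 0.0496), or 1.74-fold lower, with a 95% interval from -1.34 to -0.26, and a second probe set fell by 1.33 (adjusted p = 0.00531). The call of the brightest set was lost in 15 of the 18 fits that left out 1 array and kept without 24 h replicate 1, 72 h replicate 1 or control 3, with differences between -1.04 and -0.52 and adjusted p between 0.0179 and 0.207. In a fit of the 24 h mice and controls 1 to 3 alone its adjusted p was 0.316, and with the block it was 0.0071. At 12 h Brca1 read 6.69, 6.85, 6.49 and 6.55 and at 72 h 6.16, 6.73, 6.56 and 6.85, against 7.34, 6.94, 6.96 and 7.28 in controls 4 to 7. Neither group overlapped these controls, but the differences of -0.48 (adjusted p = 0.296) and -0.55 (adjusted p = 0.19) were not called. In the fit with the block for the 24 h arrays the 72 h difference passed (adjusted p = 0.0433).

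**Figure D3:**
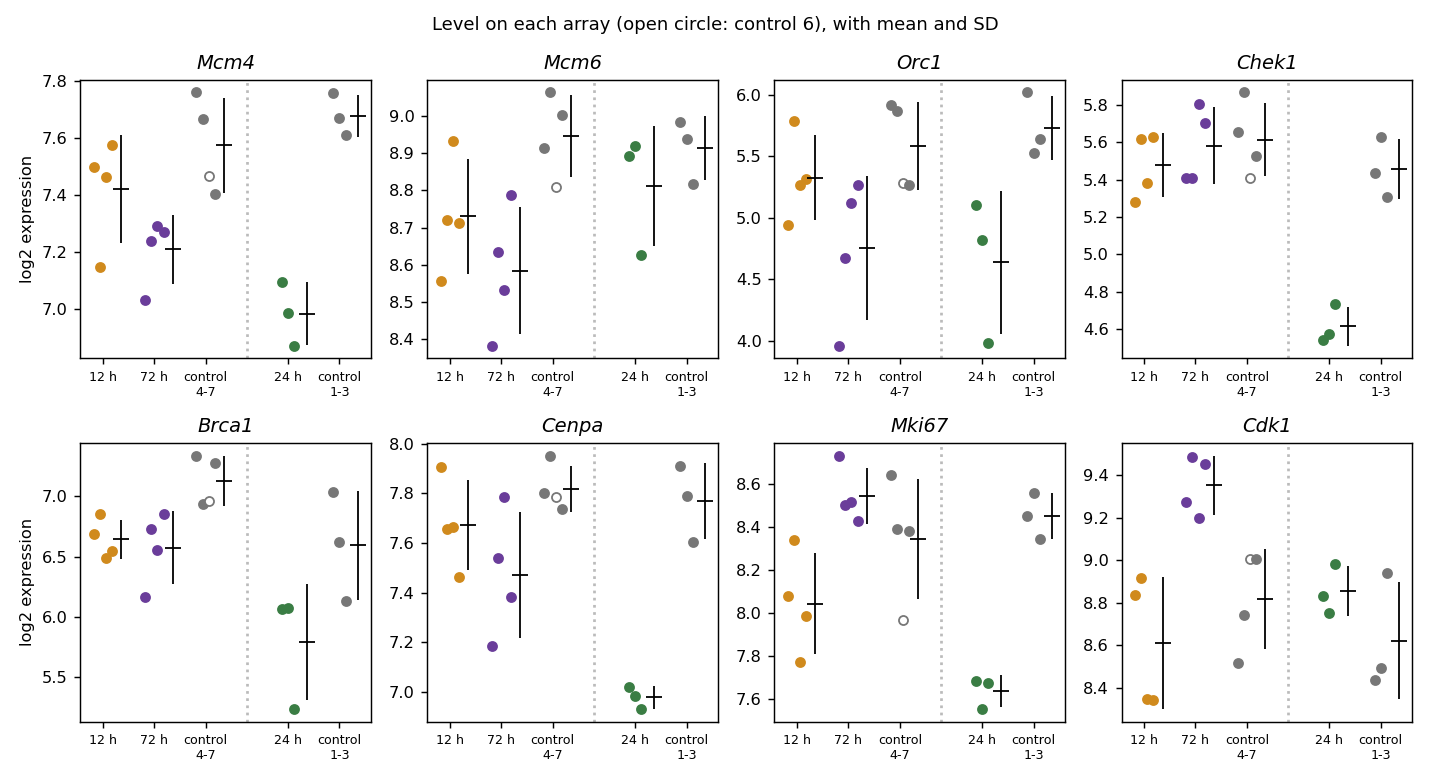
Log2 level on each of the 18 arrays of Mcm4, Mcm6, Orc1, Chek1, Brca1, Cenpa, Mki67 and Cdk1, with FSH-treated mice left of the controls of their array set and bars for the mean and SD. Control 6 is drawn as an open circle. At 24 h Mcm4, Chek1, Cenpa and Mki67 lie below all of controls 1 to 3, while at 72 h Cdk1 lies above all of controls 4 to 7.

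The cyclins and the kinase they activate gave no call against controls. Cdk1 read 9.28, 9.49, 9.20 and 9.45 in the 72 h mice, against 8.52, 8.74, 9.01 and 9.01 in controls 4 to 7. All treated mice were above all controls, with a difference of 0.54 (SE 0.16, limma adjusted p = 0.0612) and a 95% interval from 0.20 to 0.87. The fits that left out 12 h replicate 2 or control 3 called it, with adjusted p of 0.0499 and 0.0421. At 12 h Cdk1 averaged 8.61 ± 0.31 in FSH-treated mice and 8.82 ± 0.24 in controls 4 to 7 (SD, n = 4 each), and at 24 h 8.86 ± 0.12 in FSH-treated mice and 8.62 ± 0.28 in controls 1 to 3 (SD, n = 3 each). Ccna2, cyclin A2, differed by -0.12, -0.22 and -0.11 at the 3 times. Ccnb2 read 8.05, 8.15, 7.74 and 7.25 at 12 h and 8.64, 8.79, 8.36 and 8.20 at 72 h, against 8.14, 7.64, 8.98 and 8.62 in controls 4 to 7. The groups overlapped, with differences of -0.55 (SE 0.34) at 12 h and 0.15 (SE 0.34) at 72 h, and without control 6 the 12 h difference was -0.33. At 24 h it was 0.40 (SE 0.39).

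Of the mitotic kinases none was called. Aurka, Aurora A of the spindle poles, had the largest difference of the mitosis genes at 12 h, -0.63, with a 95% interval from -1.51 to 0.25 (limma adjusted p = 0.572). It read 7.33, 7.68, 7.09 and 6.54 in the 12 h mice, against 7.33, 7.02, 8.69 and 8.13 in controls 4 to 7. Control 6 was the highest of these, and without it the difference was -0.33. Plk1, polo-like kinase 1, read 5.89, 6.51, 5.89 and 5.78 at 12 h and 6.27, 5.95, 6.18 and 5.95 at 72 h, against 6.27, 6.42, 6.99 and 6.61 in controls 4 to 7. Its differences were -0.56 at 12 h (adjusted p = 0.194) and -0.49 at 72 h (adjusted p = 0.263), and without control 6 they were -0.42 and -0.35. The Plk1 controls also differed between the array sets, by -1.13 (controls 1 to 3 minus controls 4 to 7, SE 0.23, limma adjusted p = 0.00897). Aurkb, Aurora B of the centromere, was dim, with a mean of 4.23, and differed by -0.09, 0.51 (adjusted p = 0.0889) and 0.30. Plk4, the kinase of centriole duplication, differed by -0.07, -0.14 and -0.27.

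The spindle checkpoint genes and the anaphase-promoting complex gave no call. Bub1, a kinase of the checkpoint, read 8.72, 8.70 and 8.99 in the 24 h mice, against 9.36, 9.21 and 9.41 in controls 1 to 3. The groups did not overlap, and the difference was -0.52 (SE 0.21, limma adjusted p = 0.108). Bub1b, its relative BubR1, differed by -0.43, -0.27 and -0.19, and Mad2l1, the checkpoint protein MAD2, by -0.25, -0.13 and -0.04. Bub3, which brings both Bub kinases to kinetochores, differed by 0.14, 0.05 and 0.16. Cdc20 differed by -0.17, 0.21 and -0.06, and Ube2c, the ubiquitin-conjugating enzyme of the anaphase-promoting complex, by -0.16, 0.09 and 0.10.

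Among the motors and spindle proteins, Kif23, a kinesin of the central spindle, read 7.29, 7.42, 7.06 and 7.42 in the 12 h mice, against 7.88, 7.76, 7.63 and 7.87 in controls 4 to 7. The groups did not overlap, and the difference was -0.49 (SE 0.15, limma adjusted p = 0.0799). A second, dimmer Kif23 probe set fell at 12 h, by 0.69 (adjusted p = 0.00475), and at 24 h, by 0.51 (adjusted p = 0.0368), and gave 0.00 at 72 h. Kif11, the motor that separates spindle poles, differed by -0.24, -0.18 and -0.03, with controls that differed between the array sets by 1.04 (controls 1 to 3 minus controls 4 to 7, adjusted p = 0.0119). Kif20a, another kinesin of the central spindle, differed by -0.29, -0.21 and -0.21, and Tpx2, the activator of Aurora A, by -0.12, -0.23 and 0.14.

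The chromosome and kinetochore genes held both mitosis calls. Cenpa, the histone variant that marks centromeres, read 7.02, 6.98 and 6.93 in the 24 h mice, against 7.91, 7.79 and 7.60 in controls 1 to 3. The treated mice lay close together and below every control, and Cenpa fell by 0.79 (SE 0.13, limma adjusted p = 0.00161), or 1.73-fold lower. At 12 h it averaged 7.67 ± 0.18 and at 72 h 7.47 ± 0.25, against 7.82 ± 0.09 in controls 4 to 7 (SD, n = 4 each), with differences of -0.15 (adjusted p = 0.697) and -0.35 (adjusted p = 0.105).

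Mki67 read 7.69, 7.55 and 7.68 in the 24 h mice, against 8.45, 8.56 and 8.35 in controls 1 to 3. All treated mice were again below all controls, and Mki67 fell by 0.81 (SE 0.15, limma adjusted p = 0.00313), or 1.76-fold lower. At 72 h it read 8.73, 8.50, 8.52 and 8.43, against 8.64, 8.39, 7.97 and 8.38 in controls 4 to 7, where the groups overlapped and the difference was 0.20 (adjusted p = 0.56). The 24 h calls of Mcm4, Chek1, Cenpa and Mki67 held in each of the 18 fits without 1 array, with adjusted p no higher than 0.00817, 0.00811, 0.0101 and 0.0151. In a fit of the 24 h mice and controls 1 to 3 alone the same genes had adjusted p of 0.0306, 0.0371, 0.0315 and 0.021.

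Top2a, the topoisomerase that untangles chromosomes, differed by -0.42 at 12 h (limma adjusted p = 0.0767), -0.33 at 24 h and -0.20 at 72 h, with treated mice all below their controls at 12 h and 24 h. Birc5, survivin of the chromosomal passenger complex, differed by -0.37, 0.18 and -0.05. Cenpe, a kinetochore motor, was dim, with a mean of 3.32. It read 3.13, 3.17, 3.13 and 3.06 in the 72 h mice, against 2.95, 4.09, 4.37 and 3.88 in controls 4 to 7. Control 4 was below all treated mice and the other 3 controls were above them, with a difference of -0.70 (adjusted p = 0.0891). It became -0.99 without control 4 (adjusted p = 0.000923) and -0.52 without control 6, the highest of these controls. Over the 18 fits that left out 1 array the limma adjusted p reached 0.219.

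Counted by overlap, 6 S phase genes (Mcm4, Orc1, Gmnn, Cdc45, Chek1 and Brca1) and 4 mitosis genes (Bub1, Cenpa, Top2a and Mki67) had every 24 h mouse below every control of controls 1 to 3, where 11.2% of all probe sets did. At 72 h 6 S phase genes (Mcm4, Mcm6, Mcm7, Gmnn, Rrm1 and Brca1) lay below controls 4 to 7, where 5.64% of all probe sets did, and 3 mitosis genes (Cdk1, Aurkb and Bub3) lay above, where 6.91% did. At 12 h Rfc4, Brca1, Kif23 and Top2a lay below, where 4.83% of all probe sets did. Among probe sets with a mean of at least 5 the shares below were 8.18%, 20.8% and 9.56% at 12 h, 24 h and 72 h, and the share above at 72 h was 11.9%.

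Between 72 h and 12 h of treatment 1 member was called by its brightest probe set, Cdk1, which rose. Of the 42 other probe sets of members, 1 was also called, higher. The 12 h and 72 h mice were on the same array set and could be compared directly. Of the mitosis genes 18 of 22 were above 0 (72 h minus 12 h), with a median of 0.22, and of the S phase genes 13 of 22 were below 0, with a median of -0.05, where 35.1% of all probe sets (49.4% of those with a mean of at least 5) were below 0 and the median was 0.02. Cdk1 read 9.28, 9.49, 9.20 and 9.45 at 72 h, against 8.84, 8.92, 8.35 and 8.34 at 12 h. The later mice were all higher, and Cdk1 rose by 0.74 (SE 0.16, limma adjusted p = 0.0212), or 1.67-fold, 1 of 22 mitosis genes called, where 2.36% of all probe sets (3.94% of the brighter ones) were called and 1.37% called higher. Ccnb2, Aurkb, Kif23 and Mki67 were also higher in every 72 h mouse than in any 12 h mouse, where 4.41% of all probe sets (7.52% of the brighter ones) were, and were not called. For Mki67 the difference was 0.50 (adjusted p = 0.0642), for Ccnb2 0.70 (adjusted p = 0.48). Mcm2 was the only member lower in every 72 h mouse (-0.39, adjusted p = 0.331), where 4.03% of all probe sets (6.92% of the brighter ones) were. The Cdk1 call was lost without 12 h replicates 3 or 4 or 72 h replicates 2 or 4, with differences from 0.65 to 0.85 and adjusted p up to 0.079.

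The 24 h mice could be compared with the other times only through their own controls, as a difference of differences. Mki67 was higher at 72 h than at 24 h by 1.01 (SE 0.20, limma adjusted p = 0.0483), or 2.02-fold, 1 of 22 mitosis genes called, where 0.371% of all probe sets (84, with the block 301) were called and 0.212% called higher. This call was lost in 13 of the 18 fits that left out 1 array, and was kept without 12 h replicates 2 or 3, 24 h replicate 1, control 3 or control 4, with values from 0.89 to 1.11. Without control 6 it was 0.89 (adjusted p = 0.0563). Chek1 was higher at 72 h than at 24 h by 0.81 (SE 0.18, adjusted p = 0.0901). Between 24 h and 12 h no member was called by limma, where 0.875% of all probe sets (198, with the block 650) were, and 4 S phase and 4 mitosis genes had an unadjusted p below 0.05. The smallest adjusted p were those of Chek1 (-0.70, 0.0905) and Cenpa (-0.64, 0.107).

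Other genes of the same processes were counted from wider lists. Of 33 further S phase genes with a probe set, 2 fell and none rose at 12 h, 2 fell and 1 rose at 24 h, and 1 fell and none rose at 72 h. Of all probe sets 3.20%, 6.10% and 3.63% were called higher at the 3 times and 2.16%, 7.26% and 2.50% lower. The median log2 differences of the 33 were -0.20, -0.16 and -0.14, with 27, 23 and 24 of the 33 below 0. The gene called at every time was Pole, the catalytic subunit of the leading-strand polymerase epsilon. It read 7.96, 8.03, 7.92 and 7.98 at 12 h and 7.52, 7.85, 7.75 and 7.94 at 72 h, against 8.35, 8.43, 8.31 and 8.46 in controls 4 to 7, and 7.52, 7.66 and 7.96 at 24 h, against 8.41, 8.66 and 8.38 in controls 1 to 3. Every treated mouse was below every control, and Pole fell by 0.41 (limma adjusted p = 0.0236), 0.77 (adjusted p = 0.0006) and 0.62 (adjusted p = 0.00144) at 12 h, 24 h and 72 h. Rpa2, a subunit of the single-strand binding protein, fell at 12 h by 0.46 (adjusted p = 0.0279). Timeless, of the replication fork protection complex, fell at 24 h by 0.76 (adjusted p = 0.034), and Pold2, a subunit of polymerase delta, rose at 24 h by 0.49 (adjusted p = 0.0293).

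Of 41 further mitosis genes, 2 fell and 1 rose at 12 h, 1 fell and 1 rose at 24 h, and none fell and 1 rose at 72 h, with medians of -0.23, -0.13 and -0.07 and 35, 29 and 31 below 0. Racgap1, a GTPase-activating protein that works with Kif23 at the central spindle, was the gene that rose at each time. It read 8.35, 8.73, 8.57 and 8.75 at 12 h and 8.91, 8.77, 8.84 and 8.90 at 72 h, against 8.10, 7.76, 7.98 and 8.11 in controls 4 to 7, and 8.85, 9.15 and 9.03 at 24 h, against 7.75, 7.91 and 8.14 in controls 1 to 3. No treated mouse overlapped its controls, and Racgap1 rose by 0.61 (limma adjusted p = 0.00268), 1.08 (adjusted p = 7.58e-05) and 0.86 (adjusted p = 0.000199). Its second probe set rose by 1.36, 0.82 and 1.35. Cdca5, which protects sister chromatid cohesion, and Spc25, of the kinetochore, fell at 12 h by 0.54 (adjusted p = 0.0195) and 0.34 (adjusted p = 0.0446). Melk, a mitotic kinase, fell at 24 h by 0.58 (adjusted p = 0.0212).

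Markers of other cells in the testis moved beside these genes. The 16 measured markers of spermatogonia averaged 6.82 to 7.06 at 12 h and 6.83 to 6.94 at 72 h, against 7.17 to 7.33 in controls 4 to 7, and 6.43 to 6.75 at 24 h, against 7.01 to 7.21 in controls 1 to 3. In each comparison the treated mice lay below all controls. Their median differences were -0.29, -0.39 and -0.25 at 12 h, 24 h and 72 h. Of the 16, 1 fell at 12 h, 6 fell at 24 h and 3 fell at 72 h, and none rose. At 24 h these were Sall4 (-1.10), Lin28a (-1.09), Kit (-1.39), Stra8 (-1.06), Tex14 (-0.88) and Elavl2 (-1.11), and at 72 h Sall4 (-1.03), Lin28a (-1.11) and Stra8 (-1.03). Called or not, 12 of the 16 were below 0 at 24 h, and Zbtb16, Id4, Dmrtb1 and Utf1 were above 0. Of all probe sets 2.16%, 7.26% and 2.50% were called lower at the 3 times, and 3.20%, 6.10% and 3.63% higher. Of those with a mean of at least 5, 3.70%, 13.9% and 4.17% were called lower, and 5.96%, 6.11% and 6.70% higher. The same shares apply to the marker counts below. The part of spermatogonia in the lower cell cycle genes was not tested. Sertoli cell markers (14 genes) averaged 9.62 to 9.78 at 12 h and 9.92 to 10.1 at 72 h, against 9.38 to 9.65 in controls 4 to 7, and 9.70 to 9.98 at 24 h, against 9.48 to 9.62 in controls 1 to 3. They did not move together: 5 rose and 2 fell at 12 h, 3 rose and 1 fell at 24 h, and 5 rose and 1 fell at 72 h, with median differences of 0.21, -0.02 and 0.11. Rhox5, an androgen-responsive homeobox gene, rose by 4.13 at 24 h and 4.27 at 72 h, Inha, the inhibin alpha subunit, rose by 1.75 and 1.94, and Fshr, the FSH receptor, fell by 1.24 and 1.11. The 11 markers of meiotic cells averaged 7.38 to 7.98 at 12 h and 7.64 to 8.05 at 72 h, against 7.79 to 8.21 in controls 4 to 7, and 7.41 to 7.98 at 24 h, against 7.65 to 8.12 in controls 1 to 3, and the groups overlapped. The 9 macrophage markers averaged 5.43 to 5.67 at 12 h and 6.0 to 6.26 at 72 h, against 5.49 to 5.94 in controls 4 to 7, and 5.38 to 5.69 at 24 h, against 5.28 to 5.54 in controls 1 to 3. At 72 h 2 of the 9 rose (Cd68 and Mrc1), and 1 fell at 12 h and 1 at 24 h.

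The 7 markers of Leydig cells averaged 7.89 to 8.22 at 12 h and 7.08 to 7.61 at 72 h, against 6.62 to 7.53 in controls 4 to 7, and 7.74 to 8.25 at 24 h, against 6.59 to 6.80 in controls 1 to 3. Some steroidogenic genes among them were called: Star and Cyp17a1 rose at 12 h by 2.53 and 2.86, and Star, Cyp11a1 and Cyp17a1 rose at 24 h by 2.50, 4.03 and 4.62. The steroidogenic genes Hsd3b1 and Hsd17b3 were not called at any of the times, and no Leydig marker was called at 72 h. The median differences were 0.57, 0.03 and 0.35 at 12 h, 24 h and 72 h, and at 24 h Hsd3b1, Nr5a1 and Pdgfra were below 0. Peritubular myoid markers averaged 8.14 to 8.62 at 12 h and 7.94 to 8.33 at 72 h, against 7.53 to 8.13 in controls 4 to 7, and 7.90 to 8.08 at 24 h, against 7.39 to 7.77 in controls 1 to 3. Markers of endothelial cells averaged 3.20 to 4.12, those of red blood cells 2.40 to 2.80 and, on every array but control 6, those of spermatids 2.98 to 3.71, all below the median of the probe set means (4.54). What part these cells have in the cell cycle genes was not tested.

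Some mitosis genes varied from mouse to mouse with the markers of pachytene spermatocytes, meiotic cells that the hpg testis still forms. The 9 markers averaged 5.15 to 6.86 at 12 h and 6.17 to 7.39 at 72 h, against 4.29 to 8.85 in controls 4 to 7, and 4.81 to 7.67 at 24 h, against 4.70 to 7.08 in controls 1 to 3, and none of them was called at any time. The relation was computed for the 44 members over the 18 arrays, with 1e+05 permutations. Members and markers were both chosen with earlier results of these data known. Aurka had a Pearson r of 0.89 (p = 1e-05, the smallest these permutations can give, adjusted over the 44 relations 0.00022) and a Spearman rho of 0.89 (p = 2e-05, adjusted 0.00044). Ccnb2 had an r of 0.86 (permutation p = 1e-05, adjusted 0.00022) and a rho of 0.76 (p = 0.00036, adjusted 0.00528). Cdc20 had an r of 0.67 (permutation p = 0.00206, adjusted 0.0302) and a rho of 0.85 (p = 2e-05, adjusted 0.00044). Without the 2 arrays farthest from the median, controls 5 and 6, r was 0.88, 0.88 and 0.76 over 16 arrays. Within the set of 12 arrays it was 0.85 (permutation p = 0.00086, adjusted 0.0191), 0.83 (p = 0.00087, adjusted 0.0191) and 0.73 (p = 0.00815, adjusted 0.12), and within the set of 6 it was 0.94, 0.99 and 0.87 (exact permutation p = 0.00417, 0.00278 and 0.00556). The p-values of the set of 6 were not adjusted over the 44 relations. The smallest of that set was that of the S phase gene Mcm6, which ran the other way (r = -0.86, exact permutation p = 0.00139).

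No other member passed the adjustment on Pearson's r. Of the mitosis genes 14 of 22 had a positive r and 3 passed, and of the S phase genes 4 of 22 had a positive r and none passed. Mcm2 ran the other way, with an r of -0.63 (permutation p = 0.00491, adjusted 0.054) and a rho of -0.62. The 18 arrays include FSH-treated and control mice of both array sets, and the relation across mice does not show in which cells the transcripts lay. Among themselves the members varied with little in common once group means were removed: the median correlation between pairs of genes was 0.15 within S phase, 0.12 within mitosis and 0.06 between the groups, over 18 arrays.

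**Figure D4:**
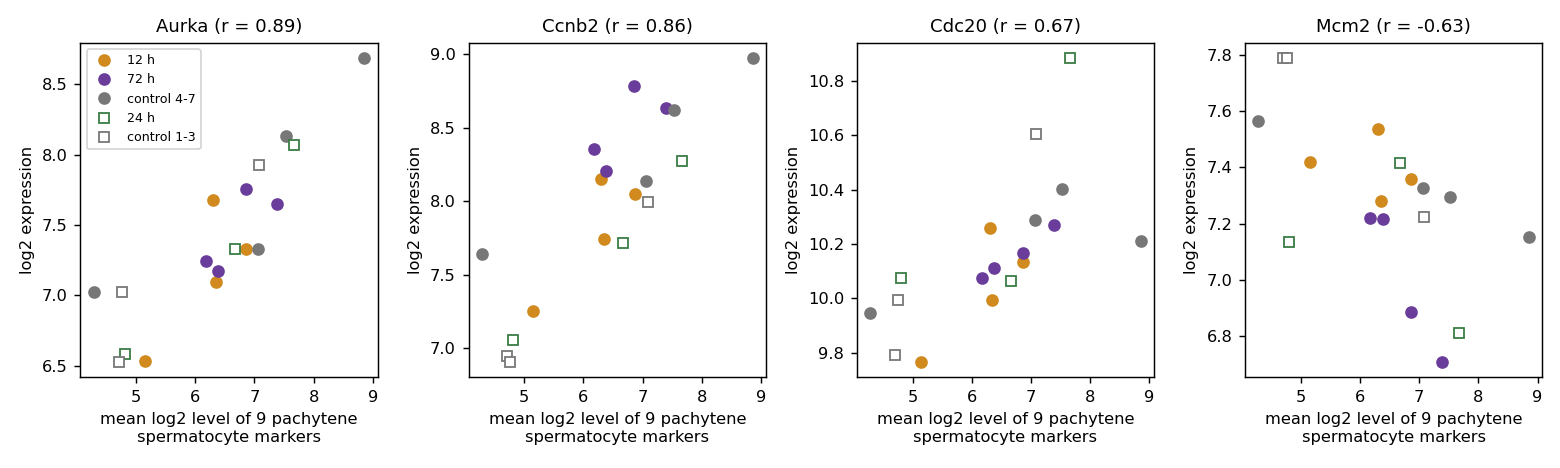
Log2 level of Aurka, Ccnb2, Cdc20 and Mcm2 against the mean log2 level of 9 pachytene spermatocyte markers, 1 point per array (12 h, 24 h, 72 h of FSH and controls, 18 in all), with circles for the set of 12 arrays and squares for the set of 6. Aurka, Ccnb2 and Cdc20 are higher where the markers are higher (r of 0.89, 0.86 and 0.67), and Mcm2 is lower (r of -0.63).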

How the data were processed

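Individual testes of hpg mice were hybridized to 1-colour Affymetrix MOE430A arrays, 8 micrograms of RNA each, per the labels. The deposited table holds log2 values made by the authors, and that they are log2 follows from their range (1.04 to 15.2). RMA and GCRMA are named per the submitters' processing notes, without role or version, so which of them gave these values is not given in the sources used here. Array medians were 4.44 to 4.64, and nothing was rescaled.

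Control probe sets (64) were left out, which kept 22626. Of these, 20380 carried 1 gene symbol, 691 several and 1555 none in the platform annotation. The groups came from the sample labels and the array sets from the Dap spike-in. limma 3.58.1 in R 4.3.3 fitted 5 means (12 h, 24 h, 72 h, and the controls of each set) over all 18 arrays with 13 residual degrees of freedom, and p-values were adjusted by Benjamini and Hochberg over all probe sets. Figures and permutation tests used Python 3.11.15, NumPy 2.4.6, SciPy 1.17.1, pandas 2.3.3 and matplotlib 3.10.9. The fit was tested on simulated data. Precision is limited by the 3 or 4 mice per group, and arrays carry no depth.

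The members and gene lists were chosen with earlier results of these data known. Beside the genes called, the text names, for each time and process, the 3 members with the largest difference and up to 4 other genes of the wider lists. Other members are given by role. The alternatives were all 7 controls without the array set, the arrays of 1 set alone, quantile normalization, subtracted array medians, a filter at a mean of 4, another eBayes setting, array weights, replicate number as a block (over all arrays, or for the 24 h arrays and controls 1 to 3, chosen after seeing the data), the mean of a gene's probe sets, and each array left out. Replicates are separate mice. The labels do not state that same-numbered mice of different groups are pairs. Same-numbered arrays of the 24 h group and controls 1 to 3 deviated together from their group means (r = 0.18, 0.34 and 0.41), so a fit with that number as a block is given beside the results it changes. Same-numbered arrays of the 12 h and 72 h groups had small positive values (r = 0.11, 0.13, 0.01 and 0.07 for replicates 1 to 4). In the remaining pairs of groups r ran from -0.24 to 0.08.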

Additional observations from a re-analysis of the deposited data

Results flagged for a closer look

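In the 12 h group Plk1 was at 6.51 in replicate 2, apart from 5.78 to 5.89 in the other 3 mice. In the 72 h group Cdc45 was at 7.5 in replicate 2, apart from 7.08 to 7.13 in the other 3. The spermatid markers averaged 9.99 in control 6, apart from 3.02 to 3.18 in controls 4, 5 and 7, and 439 probe sets (1.94%) were at least 1 log2 unit higher in control 6 than in each of those controls. These are the 3 groups of 75 in which 1 mouse lay far from the rest by Dixon's test. Chance alone gives such a mouse in about 1 in 20 of the groups tested, so a count of 3 in 75 is not above chance. In control 6 Prm2 was at 12.3, Tnp1 at 11.7 and Odf1 at 10.6, and these genes with Prm1, Tnp2, Akap4 and Acrv1 were between 2.39 and 4.49 on the other 17 arrays.

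In 2 members the difference between times passed the test. Cdk1 was 0.74 higher (log2) after 72 h than after 12 h, and Mki67 was 1.01 higher after 72 h than after 24 h, each time taken against its own controls. Neither was stable: the Cdk1 call (limma adjusted p = 0.0212) was lost in 4 of the 18 fits without 1 array and with the block over all arrays (0.0994). The Mki67 call (0.0483) was lost in 13 of those fits and with quantile normalization, subtracted medians, the filter on dim probe sets, the other eBayes setting, array weights and that block, and kept with the block for the 24 h arrays (0.0453).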

How the results depend on the processing

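Leaving out each array in turn gave, at 12 h, 877 to 1278 calls over all probe sets, 0 to 1 S phase and 0 to 1 mitosis calls, and medians of -0.20 to -0.14 and -0.36 to -0.20. At 24 h it gave 1678 to 3848, 2 to 5 and 2 to 3, and medians of -0.24 to -0.12 and -0.18 to 0.014. At 72 h it gave 994 to 1456, 0 to 3 and 0 to 1, and medians of -0.36 to -0.23 and -0.12 to -0.06. For 72 h minus 12 h it gave 290 to 579, 0 and 0 to 2, and -0.10 to 0.02 and 0.12 to 0.29. For 24 h minus 12 h it gave 94 to 756, 0 to 1 and 0, and -0.04 to 0.11 and 0.05 to 0.25. For 72 h minus 24 h it gave 46 to 399, 0 and 0 to 2, and -0.06 to 0.08 and -0.03 to 0.10.

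With all 7 controls and no array set, calls over all probe sets were 8137 at 24 h (5283 higher, against 1381 of 3023 with the set), 9098 for 24 h minus 12 h and 7001 for 72 h minus 24 h. Then S phase calls were 2 at 12 h, 9 at 24 h (median -0.31), 5 at 72 h, 5 for 24 h minus 12 h and 4 for 72 h minus 24 h, and mitosis calls were 2 at 12 h, 1 at 72 h, 4 for 24 h minus 12 h and 3 for 72 h minus 24 h. With the arrays of 1 set alone there were 393 calls at 24 h, 1 mitosis call at 12 h and 0 S phase calls at 72 h. Array weights gave 1902 calls at 12 h (3 S phase, 2 mitosis), 1276 at 24 h, 2414 at 72 h (1 mitosis), 1630 for 72 h minus 12 h (3 mitosis), 114 for 24 h minus 12 h, and 0 mitosis calls for 72 h minus 24 h. Subtracted medians gave 0 S phase and 1 mitosis call at 72 h, quantile normalization an S phase median of -0.11 at 24 h, a filter at a mean of 4 1 mitosis call at 72 h and 45 calls for 72 h minus 24 h, the other eBayes setting 0 S phase calls at 72 h, and the mean of a gene's probe sets 1 S phase and 1 mitosis call at 12 h. The mitosis count for 72 h minus 24 h was 0 under the first 4 of these settings. The causes were not tested.

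The replicate block over all arrays gave 255 calls at 12 h, 244 at 72 h (0 S phase), 324 for 72 h minus 12 h (0 mitosis), 52 for 24 h minus 12 h and 43 for 72 h minus 24 h (0 mitosis), and turned Cenpe at 72 h to 0.33 (limma adjusted p = 0.793). The block for the 24 h mice and controls 1 to 3 alone, chosen after seeing the data, gave 4827 calls and 6 S phase calls at 24 h, 650 calls for 24 h minus 12 h, 301 for 72 h minus 24 h, and 1 mitosis call at 12 h. This block moved Orc1, Mcm2 and Rfc4 at 24 h and Brca1 at 72 h past the threshold, and no member called without it lost its call. Over these settings, 187 of 228 values of single genes kept their direction and side of the threshold. Brca1 at 24 h was not called with quantile normalization (0.099), subtracted medians (0.0513), weights (0.157) or the block over all arrays (0.0765, all limma adjusted p). With the block for the 24 h mice and controls 1 to 3 it was called (0.0071). Cdk1 at 72 h was called without the array set (0.0112), with subtracted medians (0.0399), the filter (0.0392) and weights (0.022). Low signal limits Cenpe, Tyms, E2f1 and Aurkb, with means of 3.32 to 4.23.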

Other observations

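With group means removed, the probe sets that followed the mean of the mitosis genes most closely over the 18 arrays, among 9668 with a mean of at least 5 that are no members, were those of Pole3 (r = 0.95), Cdkal1 (0.89), Prc1 (0.88 and 0.85 with 2 probe sets), Ttc4, Hspa4l and Tmsb10 (0.87 each), Atp6v1g1 and Ube2s (0.86 each) and Ube2t (0.85). Prc1 is a bundling protein of the central spindle, and Ube2s is an enzyme of the anaphase-promoting complex. The points share arrays and normalization. Within the mitosis genes Cdk1 (0.89), Birc5 (0.86), Bub1b (0.83), Ccnb2 (0.80) and Aurka (0.79) followed that mean, which includes the gene itself, and the S phase gene Mcm4 ran against it (-0.70).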
